A study of Mus musculus with 4 samples.

Results

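CD4 T cells in the ascites of tumor-bearing mice were taken from the deposited single-cell counts as 629 barcodes, out of 98560 barcodes kept and 133849 in all. A barcode was kept with 500 to 4800 detected genes and at most 15% of its unique molecular identifiers (UMIs, each a counted transcript) from mitochondrial genes. It was called a CD4 T cell when it held at least 1 UMI of the CD3 genes Cd3e, Cd3d or Cd3g and at least 1 UMI of Cd4, and 0 UMIs of Cd8a, Cd8b1, Trdc, Cd163l1, Cd79a, C1qa and C1qb. The cells were thus chosen by their measured UMIs of these genes, whose levels describe the gate and are not results.

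The ascites came from female FVB mice at 6 weeks after injection of Br-Luc ovarian tumor cells, in an immunocompetent host. Mice of the siCont group received a control siRNA and those of the siFXR1-LNA group an siRNA against Fxr1, both modified with locked nucleic acid bases, which slow their breakdown, and both given into the peritoneal cavity in jetPEI nanoparticles. Each group had 2 libraries, and each library was a pool of several mice, so the library was the replicate and differences between single mice could not be seen. The study itself set aside one siFXR1-LNA replicate with few cells, which the labels do not identify, and both were used here, each left out in turn as an alternative. The siCont replicates 1 and 2 gave 153 and 407 CD4 T cells, and the siFXR1-LNA replicates 1 and 2 gave 25 and 44. For comparison, 654 CD8 T cells (the same gate with CD8 in place of CD4) and 2824 B cells (gated on B cell genes) were taken from the same libraries.

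CD4 T cells recognise peptides on MHC class II molecules and help other immune cells through cytokines and through surface ligands such as CD40 ligand. Naive and central memory cells keep the transcription factors LEF1 and TCF1 (encoded by Tcf7) and circulate through lymph nodes, while regulatory T cells, marked by FOXP3, restrain responses. Like most cells, they answer type I interferon, whose receptor switches on a shared set of antiviral genes.

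The fixed markers were read in every library before any comparison. Cd4 had 484 and 424 CPM (counts per 1e6 UMIs of the CD4 T cells) in the siCont replicates and 489 and 422 CPM in the siFXR1-LNA replicates, against 2.34, 1.46, 0 and 0 CPM in the B cells of the same libraries. Lef1 stood at 131, 273, 262 and 338 CPM in siCont replicates 1 and 2 and siFXR1-LNA replicates 1 and 2, in that order, which is kept for every such run of values. Tcf7 stood at 214, 378, 175 and 499 CPM and the costimulatory receptor Cd28 at 154, 173, 157 and 169 CPM, and the groups overlapped in all of these genes. A UMI of a receptor chain constant region (Trac, Trbc1 or Trbc2) was found in 79, 306, 11 and 28 of the cells and a UMI of Lef1 or Tcf7 in 72, 318, 14 and 36. As shares these were 51.6%, 75.2%, 44.0% and 63.6% for the receptor chains and 47.1%, 78.1%, 56.0% and 81.8% for Lef1 or Tcf7, so the label was less firmly borne out in replicate 1 of both groups. Most of the cells carried a single Cd4 UMI (118, 283, 22 and 36 cells). MHC class II genes gave over 1% of the UMIs in 11, 20, 0 and 1 cells, and results that rest on those cells are given without them.

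The siRNA target was not lower in the cells labelled as treated. Fxr1, at chr3:34019943-34070322 (GRCm38), had 40.3 and 57.3 CPM in the siCont replicates and 140 and 69.1 CPM in the siFXR1-LNA replicates (log2 fold change 0.73 ± 0.47, SE; adjusted p = 0.57). Its relatives Fmr1 (37.8, 28.3, 87.4 and 38.4 CPM) did not pass the test either, and Fxr2 (25.2, 21.8, 34.9 and 30.7 CPM) was too low to be tested. The Fxr1 levels rest on few UMIs of CD4 T cells. The paper reports lower Fxr1 in epithelial cells of the siFXR1-LNA group, which were not compared here. All directions below are those of the libraries labelled siFXR1-LNA against the libraries labelled siCont. The libraries also differed as wholes: hemoglobin genes took 29.5% and 41.1% of all UMIs under siCont and 10.0% and 9.11% under siFXR1-LNA. Each pair of libraries shared 598 to 2882 of all deposited barcodes and no CD4 T cell barcode. With so few CD4 T cells, the lack of shared barcodes among them says little. The CD4 T cells held 396851, 1378268, 57236 and 130333 UMIs in sum and a median of 2225, 2783, 2116 and 2596.5 per cell.

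CD4 T cells were a smaller part of the barcodes gated as CD4 or CD8 T cells in the siFXR1-LNA libraries. Among CD4 and CD8 T cells together, they made up 57.1% (95% exact binomial interval 50.9 to 63.1) and 52.4% (48.9 to 56.0) in the siCont replicates, and 25.8% (17.4 to 35.7) and 31.0% (23.5 to 39.3) in the siFXR1-LNA replicates. The groups did not overlap, and the mean was lower by 26.4 percentage points. With 2 libraries a group, the exact two-sided permutation test cannot give less than 0.333, which was its p. Under each alternative gate, from a receptor chain UMI to thinning every barcode to 1000 UMIs before the gate was applied, both siFXR1-LNA libraries stayed below both siCont libraries. This share leaves out 593, 636, 443 and 314 barcodes with a CD3 UMI but neither a Cd4 nor a CD8 UMI. Of all kept barcodes with a CD3 UMI, CD4 T cells were 4.91%, 16.2%, 2.63% and 2.83%, and the siCont libraries differed widely between themselves. Of all kept barcodes, CD4 T cells were 0.761% and 4.48% under siCont and 0.0464% and 0.283% under siFXR1-LNA (exact permutation p = 0.333). Kept barcodes far outnumber the cells that the paper analysed, so these are shares of barcodes, not all of which need be cells. Those denominators ranged from 9090 kept barcodes in siCont replicate 2 to 53842 in siFXR1-LNA replicate 1, and the difference of the means ran from -0.596 (without siCont replicate 2) to -4.31 percentage points (without siCont replicate 1). The intervals cover counting error only. The paper reports CD4 T cells as more abundant than CD8 T cells after siFXR1-LNA, with cells typed by clusters and a replicate left out. By flow cytometry of ascites it reports more of both types. Those cells and gates differ from the ones used here, and the reason for the difference was not tested.

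**Figure D1:**
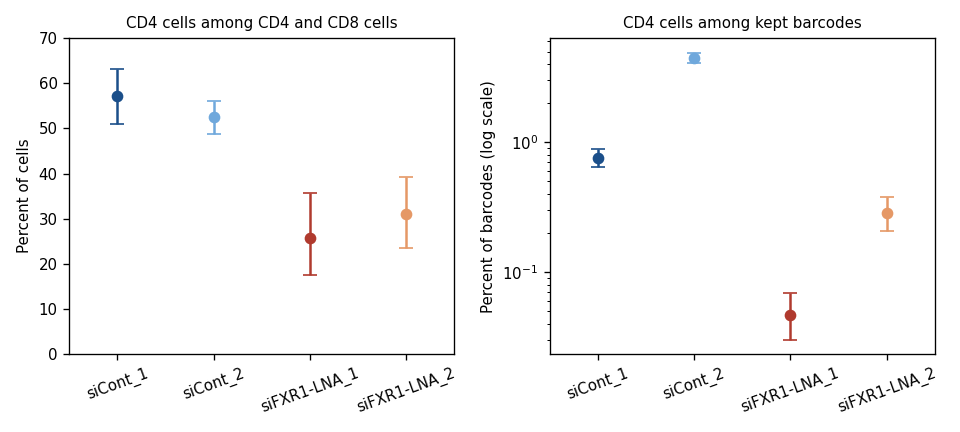
Percent of CD4 T cells among CD4 and CD8 T cells (left, linear axis) and among all kept barcodes (right, log axis) in each library, with points for the share and bars for the 95% exact binomial interval. On the left both siFXR1-LNA libraries lie at or below 31.0% and both siCont libraries at or above 52.4%, while on the right the siCont libraries differ between themselves, at 0.761% and 4.48%.

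For gene expression, the UMIs of the CD4 T cells were summed in each library and compared with edgeR. Of 4385 genes tested, 43 (0.981%) rose and 49 (1.12%) fell in the siFXR1-LNA libraries at an adjusted p under 0.05, and DESeq2 called 29 and 38. At an unadjusted p under 0.05 there were 266 genes (6.07%) on the higher and 308 (7.02%) on the lower side. Without a cutoff on p, the CPM of the libraries did not overlap between the groups for 29.4% of the genes on the higher side and for 18.1% on the lower side, and the median log2 fold change of all genes tested was -0.01. In a sum over cells, fewer expressing cells and less RNA in each cannot be told apart.

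Genes switched on by interferon were lower throughout. All 25 measured members of the interferon-stimulated list passed the filter on low counts, and 15 of them fell while none rose (DESeq2 called 9 lower and none higher). Of all genes tested 1.12% fell. In all 25 both siFXR1-LNA libraries were below both siCont libraries, against the 18.1% of genes that did so on that side. The median log2 fold change of the list was -2.78, or -2.72 with genes at 0 set to their bound. The list was chosen with earlier results of these data known, so its count is a description of these libraries and not independent evidence.

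Isg15, a ubiquitin-like protein that is attached to other proteins after interferon, had 330 and 400 CPM under siCont and 0 and 7.67 CPM under siFXR1-LNA, 131 and 551 UMIs against 0 and 1. It fell by 6.19 on the log2 scale (SE 0.72; adjusted p = 0.00031). Ifi27l2a, an interferon-induced membrane protein, had 1996, 2351, 245 and 176 CPM and fell by 3.57 (SE 0.37; adjusted p = 0.00014). In these genes both siCont libraries stood close to each other and far above both siFXR1-LNA libraries.

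Regulators of the response were lower as well. Irf7, the transcription factor that amplifies interferon production, had 171, 229, 0 and 7.67 CPM (log2 fold change -5.33 ± 0.76, SE; adjusted p = 0.0014). Stat2, a transcription factor of the interferon pathway, had 78.1, 90.0, 17.5 and 30.7 CPM and did not pass the test (adjusted p = 0.12). Usp18, which removes ISG15 and damps the receptor, had 83.2 and 127 CPM in the siCont libraries and 0 UMIs in the siFXR1-LNA libraries, at least 6.57-fold lower against a floor of 3 UMIs over that group. Ifit3, which binds viral RNA together with IFIT1, went from 123 and 148 CPM to 0 UMIs and was at least 8.49-fold lower by the same floor.

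The antiviral effectors showed the same order of libraries. Bst2, which tethers budding virus, had 310, 398, 69.9 and 15.3 CPM. Oasl2 and Oas1a, of the oligoadenylate synthetase family, had 126, 144, 0 and 15.3 CPM and 90.7, 118, 0 and 15.3 CPM. Zbp1, a sensor of Z-form nucleic acid, had 108, 157, 34.9 and 15.3 CPM. Ly6a, the surface protein Sca-1, had 900, 1194, 367 and 445 CPM and fell by 1.50 (SE 0.34; adjusted p = 0.034). The members that did not pass the test were Ifit2, Isg20, Stat2, Ifi47, Igtp, Iigp1, Gbp2, Gbp4, Ifi203 and Ifi209, with log2 fold changes between -2.67 (Gbp2) and -1.14 (Igtp). Genes of the same response outside the list also fell, among them Ifitm3 (756, 863, 87.4 and 199 CPM), Rnf213 (282, 309, 52.4 and 61.4 CPM) and Ifit3b (93.2, 100, 0 and 0 CPM). Ifitm3 and Rnf213 were picked after their values were seen.

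**Figure D2:**
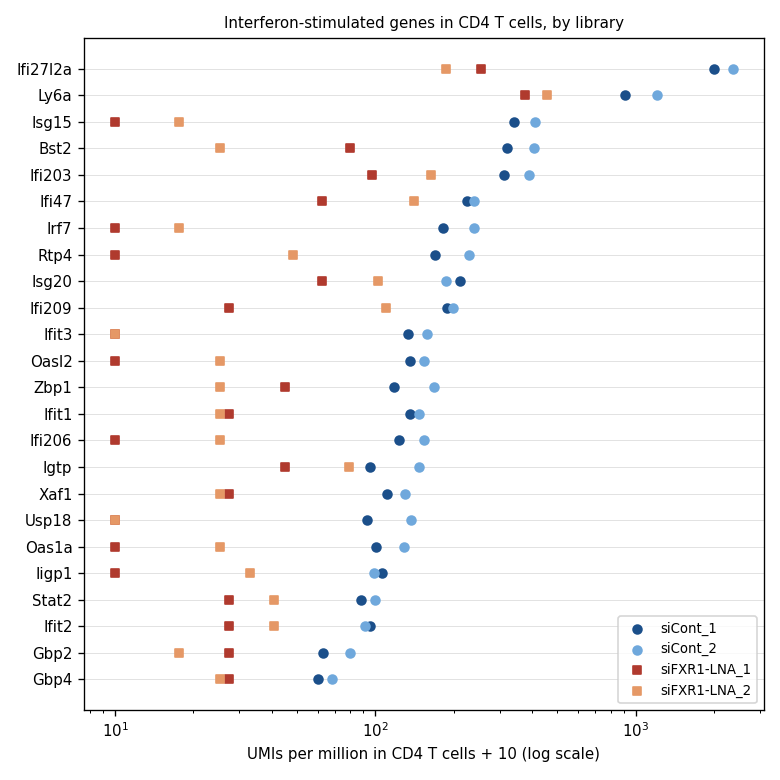
Level of 24 of the 25 interferon-stimulated genes in CD4 T cells, as CPM plus 10 on a log axis, with 1 point per library (circles siCont, squares siFXR1-LNA). In every row both squares lie left of both circles, and genes with 0 UMIs sit at the left edge at 10.

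The promoters of these genes were read to show the sequence that interferon-activated factors bind. Of the 25 genes of the list, 17 matched the RefSeq promoter windows by symbol (GRCm38.p6, 250 bases before to 50 after the start of the gene). The letters GAAA, any 2 bases, GAAA, a core of the interferon-stimulated response element, were searched on both strands. They were found in 10 of the 17 windows, and in 6 of the 9 windows of genes that fell, against 3.99% of all 27025 genes with a window. A match describes the letters and is neither a bound site nor a cause. For these 6 genes, the 30 bases around the match are shown 5′ to 3′ on the strand of the gene, with the matching letters in capitals. Where the match is on the opposite strand it reads as TTTC, 2 bases, TTTC.
Isg15, chr4:156200865-156200894, minus strand: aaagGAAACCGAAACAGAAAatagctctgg
Bst2, chr8:71537577-71537606, minus strand: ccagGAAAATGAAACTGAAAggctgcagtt
Oas1a, chr5:120907526-120907555, minus strand: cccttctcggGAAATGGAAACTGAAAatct
Ifi206, chr1:173491339-173491368, minus strand: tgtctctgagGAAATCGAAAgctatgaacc
Ifit3, chr19:34583397-34583426, plus strand: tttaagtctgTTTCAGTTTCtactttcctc
Ifit1, chr19:34640794-34640823, plus strand: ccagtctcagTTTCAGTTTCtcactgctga
In Isg15, Bst2 and Oas1a 2 matches overlap and run together, while Ifit3 and Ifit1 share the same 10 letters. The windows of Irf7, Oasl2 and Xaf1 do not hold these letters, although all of these genes fell.

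The difference was seen in single cells as well. Cells were thinned to 1000 UMIs (5 shallower cells of each siCont library dropped out), and CD4 T cells then held a mean of 6.49 and 7.66 UMIs of the list under siCont against 1.24 and 1.50 under siFXR1-LNA. At least 5 such UMIs were found in 52.7% and 57.2% of the cells of the siCont libraries, and in 1 of 25 and 1 of 44 cells (4.00% and 2.27%) of the siFXR1-LNA libraries. In CD8 T cells the means were 3.67, 2.91, 0.847 and 1.18, and in B cells 3.93, 4.35, 0.728 and 1.46. The siCont CD4 T cells thus held more of these UMIs than either other type in their own library, and all types were lower in the siFXR1-LNA libraries.

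**Figure D3:**
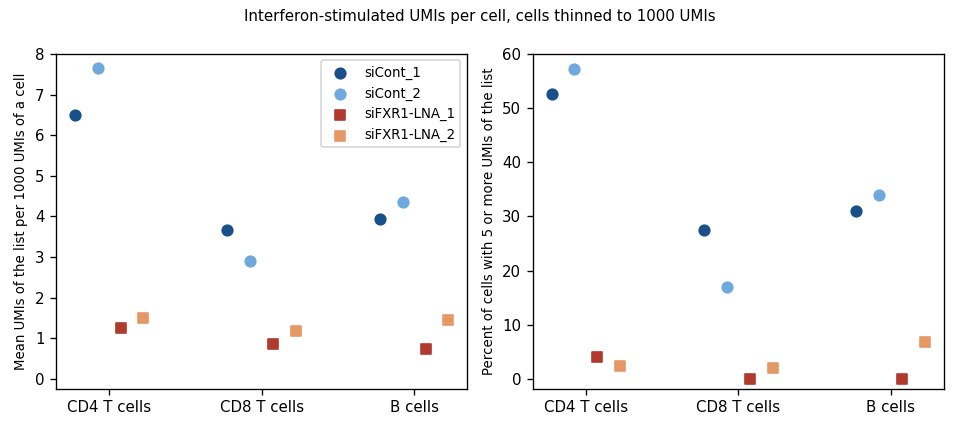
Mean UMIs of the interferon-stimulated list per 1000 UMIs of a cell (left) and percent of cells with 5 or more of them (right) in CD4 T cells, CD8 T cells and B cells, 1 point per library. CD4 T cells of the siCont libraries are highest, at 6.49 and 7.66 UMIs, and every siFXR1-LNA point lies at or below 1.50 on the left and at or below 6.74% on the right.

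The list was lower in CD8 T cells and B cells too, with a median log2 fold change of -1.69 over 24 genes tested and -2.15 over 25, but fewer members passed there (3 and 2). The difference between the changes was tested gene by gene with the library as a block. Bst2 fell further in CD4 T cells than in CD8 T cells (difference -2.15 ± 0.57, SE; adjusted p = 0.046), and it was the member of the list past the threshold in that test. Against B cells, Isg15 (difference -4.18 ± 0.95, SE; adjusted p = 0.0037) and Bst2 (-2.57 ± 0.54, SE; adjusted p = 0.001) fell further in CD4 T cells. Isg15 against CD8 T cells had a difference of -3.65 and missed the threshold (adjusted p = 0.072). In all, the CD4 change was higher than the CD8 change for 6 of 6449 genes (0.093%) and lower for 21 (0.326%), and higher than the B cell change for 13 of 8055 genes (0.161%) and lower for 44 (0.546%).

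Ly6c2, Plac8 and Ms4a4c, outside the interferon list, were among the genes that fell. Ly6c2, a surface protein of memory and effector T cells, had 302, 453, 34.9 and 69.1 CPM (log2 fold change -2.88 ± 0.48, SE; adjusted p = 0.0036). In CD8 T cells it had 1498, 795, 216 and 634 CPM, and the difference between the changes was -1.69 (adjusted p = 0.053). In B cells the groups overlapped, with 125, 118, 141 and 89.4 CPM, and the difference between the changes was -2.58 (SE 0.43; adjusted p = 5.0e-06). Plac8 had 227, 290, 0 and 15.3 CPM in CD4 T cells, against 364, 241, 92.6 and 145 CPM in CD8 T cells. It fell by 4.74 (SE 0.67; adjusted p = 0.0014), and further than in CD8 T cells (difference -3.53 ± 0.72, SE; adjusted p = 0.0014). Ms4a4c had 204, 189, 0 and 7.67 CPM and fell by 5.29 (SE 0.75; adjusted p = 0.0014). S100a6, a small calcium-binding protein, had 1356, 1149, 524 and 537 CPM in CD4 T cells and 578, 364, 427 and 713 CPM in CD8 T cells, where the groups overlapped. It fell by 1.40 (SE 0.33; adjusted p = 0.042).

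Of the 7 tested genes of the list for T helper 1 cells, which make interferon-gamma, Ly6c2 was the single member past the threshold (DESeq2 also called 1), and 6 of 7 were lower without overlap, against 18.1% of all genes tested (median log2 fold change -1.77). The chemokine receptors Cxcr3 (123, 157, 0 and 69.1 CPM), Cxcr6 (139, 120, 17.5 and 46.0 CPM), the interleukin-18 receptor subunit Il18rap (103, 98.7, 52.4 and 23.0 CPM) and Hopx (136, 125, 52.4 and 38.4 CPM) had an unadjusted p under 0.05 only. The transcription factor Stat4, which carries the interleukin-12 signal, at 174, 215, 245 and 223 CPM, did not pass and had a log2 fold change of 0.09. Ifng itself was too low for a test, with 27.7 and 26.8 CPM in the siCont libraries and 0 UMIs in the siFXR1-LNA libraries.

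One receptor segment fell with these genes. Trbv3, a variable segment of the T cell receptor beta chain, had 202, 265, 0 and 30.7 CPM (log2 fold change -3.63 ± 0.62, SE; adjusted p = 0.0043). It was chosen for this description after its values were seen. Of all Trbv UMIs in the CD4 T cells it took 30.9% and 33.2% in the siCont libraries, 80 of 259 and 365 of 1101 UMIs. In the siFXR1-LNA libraries it took 0 of 4 and 4 of 64 UMIs (0% and 6.25%). In CD8 T cells its share was 12.5%, 9.97%, 10.0% and 4.97%. In the siCont libraries Trbv3 UMIs came from 34 and 92 cells, and in siFXR1-LNA replicate 2 from 3 cells. In siFXR1-LNA replicate 1 only 3 of 25 cells held a UMI of any Trbv segment, and its 4 Trbv UMIs were too few to give a share.

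The groups that define CD4 T cell states had no member past the threshold in edgeR or in DESeq2, apart from Ly6c2. Their counts at an unadjusted p stand against the 6.07% higher and 7.02% lower of all genes tested. In the naive and central memory list 0 of 13 tested genes were called and 1, higher, had an unadjusted p under 0.05 (median log2 fold change 0.56). In that list 6 of the 13 were higher without overlap, against 29.4% of all genes tested. Il7r, the interleukin-7 receptor that keeps resting T cells alive, had 504, 698, 559 and 621 CPM. Ccr7, which guides cells into lymph nodes, had 27.7, 160, 140 and 192 CPM. In both genes siCont replicate 1 was the lowest library, and neither gene passed the test.

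The machinery of the T cell receptor also gave no call, with 0 of 24 genes past the threshold and 3, Trac, Zap70 and Gimap4, at an unadjusted p under 0.05 and lower, against 7.02% of all genes. Ptprc (CD45), which sets the activity of receptor kinases, had 600, 779, 734 and 721 CPM, and the adaptor Skap1 had 562, 738, 507 and 882 CPM. Among 13 costimulation genes none was called and 2, both lower, had an unadjusted p under 0.05. One of these was Cd40lg, the ligand by which CD4 T cells help B cells and dendritic cells, with 50.4, 82.7, 17.5 and 38.4 CPM (log2 fold change -1.28 ± 0.58, SE; adjusted p = 0.36), or 20, 114, 1 and 5 UMIs. Icos, a receptor for help in germinal centres, had 90.7, 123, 105 and 161 CPM. None of 11 activation genes was called, with 3 higher and 1 lower at an unadjusted p under 0.05. Of the 11, 8 were higher without overlap, against 29.4% of all genes tested. Junb and Nfkbia had 80.6, 148, 210 and 223 CPM and 113, 149, 157 and 261 CPM. A missing call at 25 and 44 cells does not show that the levels were equal.

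Regulatory T cells were too few to compare. Foxp3 had 5, 17, 1 and 0 UMIs in the CD4 T cells. With cells thinned to 1000 UMIs, 1 of 148 and 3 of 402 cells of the siCont libraries held a Foxp3 UMI (0.676% and 0.746%). In the siFXR1-LNA libraries 0 of 25 and 0 of 44 cells did, which allows shares of up to 12% and 6.82% by a floor of 3 cells and of up to 13.7% and 8.04% by the exact 95% interval, for cells with a Foxp3 UMI. B cells, which lack FOXP3, gave 0, 0.0781%, 0 and 0%. Without thinning the shares were 1.96%, 1.72%, 4.00% and 0%, so the direction of the means turned. Of the 9 tested regulatory genes none was called and none had an unadjusted p under 0.05. Ctla4, an inhibitory receptor, had 45.4, 86.3, 332 and 61.4 CPM and Ikzf2 had 83.2, 150, 297 and 69.1 CPM, both high in siFXR1-LNA replicate 1 alone.

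Of 16 trafficking genes 10 were lower without overlap, against 18.1% of all genes, none was called in edgeR or DESeq2, and 7 had an unadjusted p under 0.05 with a lower value, against 7.02% of all genes (median log2 fold change -0.80). The integrin beta chain Itgb2, which pairs with Itgal to form LFA-1, had 199, 261, 69.9 and 107 CPM (log2 fold change -1.45 ± 0.43, SE; adjusted p = 0.11), and Itgal had 159, 196, 105 and 99.7 CPM. Thy1, a T cell surface protein, had 247, 340, 52.4 and 161 CPM (adjusted p = 0.13). Of 19 cytokine and TGF-beta receptor genes none was called and 4, all lower, had an unadjusted p under 0.05. Il2rg, the chain shared by receptors of the interleukin-2 family, had 345, 398, 105 and 238 CPM, while Tgfbr2 had 149, 226, 245 and 207 CPM. Nkg7, a granule protein of cytotoxic cells, had 174, 188, 0 and 115 CPM beside 855, 598, 407 and 398 CPM in CD8 T cells, and Gzmb had 1, 1, 0 and 0 UMIs. The paper reports higher cytotoxic markers in CD4 T cells after siFXR1-LNA, in cells typed by clusters. None of 5 cytotoxic, 5 checkpoint, 9 proliferation or 5 Th2, Th17 and Tfh genes was called in either tool. The unadjusted p was under 0.05 for 2 cytotoxic genes, both lower, and for no member of the other 3 lists.

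**Figure D4:**
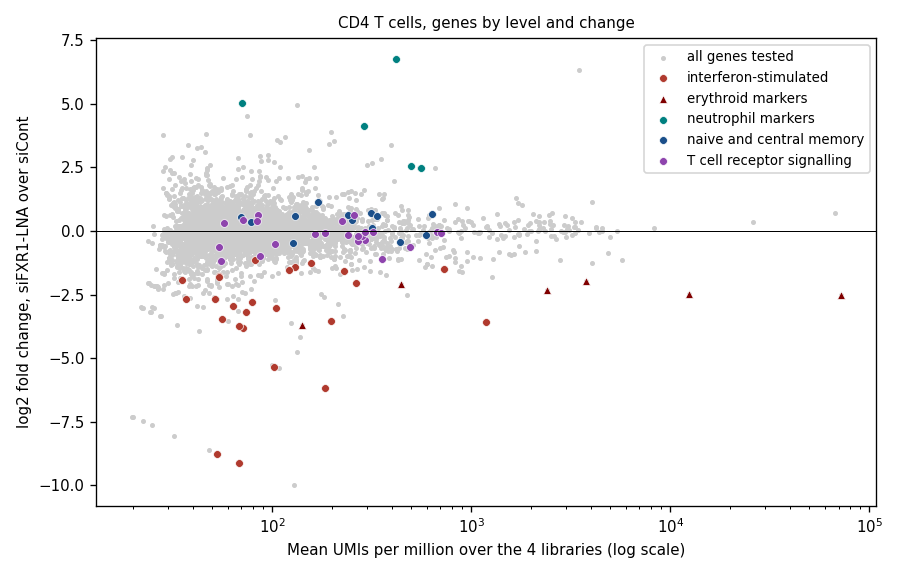
Each of the 4385 genes tested in CD4 T cells by its mean CPM over the libraries (log axis) and its log2 fold change, siFXR1-LNA over siCont, with the members of 5 lists in color. Interferon-stimulated genes and erythroid markers lie below 0, neutrophil markers above it, and the naive and receptor signalling genes around it. Points below -7 are genes with 0 UMIs in both siFXR1-LNA libraries, whose fitted values are not bounds.

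Saa3, an acute-phase protein, had 93.2 and 65.3 CPM under siCont and 7251 and 6437 CPM under siFXR1-LNA (log2 fold change 6.30 ± 0.38, SE; adjusted p = 3.2e-07). Lcn2, which binds bacterial siderophores and fills neutrophil granules, had 2.52, 8.71, 646 and 1020 CPM and rose by 6.73 (SE 0.51; adjusted p = 3.3e-06). Of 10 neutrophil markers listed, 5 passed the filter on low counts and all 5 rose, against 0.981% of all genes tested. Retnlg had 2.52, 45.7, 332 and 775 CPM. Lcn2 and Wfdc21 (0, 5.08, 122 and 153 CPM), low in both siCont libraries, passed that filter through the siFXR1-LNA libraries alone. Retnlg was low in siCont replicate 1 as well, so 5 of 5 was partly set by the filter. Without the filter 6 of the 10 were called higher. With cells of at most 1% myeloid UMIs, 1 of the 5 was called, and the median log2 fold change of the list went from 4.12 to 1.58. Myeloid UMIs were those of the neutrophil and macrophage marker lists. The limit thus removes cells by these same genes, and the drop in them is not an independent check. Arg1, an arginine-degrading enzyme of macrophages, had 47.9, 60.2, 227 and 276 CPM and rose by 2.06, less than in CD8 T cells (14.7, 21.4, 314 and 637 CPM; difference -2.55, adjusted p = 5.1e-07).

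The same genes were read in the other cells of each library. Saa3 had 88.1, 75.4, 5322 and 10081 CPM in CD8 T cells, 78.3, 64.6, 6195 and 7854 CPM in B cells, and 502, 651, 19226 and 30115 CPM in all other kept barcodes. The summed neutrophil markers stood at 227, 516, 2551 and 4512 CPM in CD4 T cells and at 116, 966, 5468 and 6776 CPM in B cells, and of the 10 markers 2, 0, 0 and 0 were at 0 UMIs in the CD4 T cells. The summed macrophage markers stood at 1235, 1138, 1782 and 2394 CPM in CD4 T cells, and 2 of 7 tested rose, against 0.981% of all genes tested. Of the 43 genes that rose, 23 of 42 tested were also called higher in CD8 T cells and 13 of 43 in B cells, where 0.679% and 0.272% of all genes tested were called higher. Of the 49 genes that fell, 9 of 47 were called lower in CD8 T cells and 5 of 48 in B cells, where 0.233% and 0.0655% of all genes were. The part of RNA from other cells in these rises was not tested.

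Of 13 tested stress and hypoxia genes 4 rose in edgeR and 3 in DESeq2, against 0.981% of all genes tested called higher in edgeR. With cells of at most 1% myeloid UMIs, 2 were called. Vegfa and Bnip3, low in both siCont libraries, passed the filter on low counts through the siFXR1-LNA libraries alone. Hmox1 and P4ha1 were each low in a siCont library. The count was thus partly set by the filter, and without it 4 of 18 were called higher. Vegfa, the vascular growth factor induced by low oxygen, had 2.52, 7.98, 384 and 138 CPM, and rose by 4.95 (SE 0.58; adjusted p = 0.00031). Bnip3, a mitochondrial protein, had 22.7, 15.2, 227 and 115 CPM, Hmox1, which breaks down heme, 60.5, 10.2, 245 and 299 CPM, and P4ha1, a collagen prolyl hydroxylase, 27.7, 71.1, 314 and 169 CPM. The glycolytic enzymes Ldha (446, 484, 839 and 652 CPM) and Eno1 (685, 665, 1066 and 1013 CPM) were higher without overlap, as were 29.4% of all genes tested. Neither enzyme passed the test. The metallothionein Mt2 had 10.1, 3.63, 140 and 146 CPM and rose by 4.52. Bnip3 and Vegfa were at like levels in B cells, with 15.2, 16.9, 187 and 151 CPM and 13.2, 4.18, 298 and 155 CPM.

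Red cell and mast cell genes fell. All 6 erythroid markers fell, against 1.12% of all genes tested, with Hbb-bs at 138279, 102416, 23656 and 22995 CPM. The median share of hemoglobin UMIs per CD4 T cell was 5.68%, 1.29%, 2.58% and 0.428%, in which the groups overlapped. Of the mast cell genes 3 of 4 tested fell. Mcpt4 had 375 and 136 CPM in the siCont libraries and 0 UMIs in the siFXR1-LNA libraries, at least 16.0-fold lower against 3 UMIs over that group. Mcpt4 and Cpa3 (287, 138, 0 and 7.67 CPM) passed the filter on low counts through the siCont libraries alone. The count of 3 of 4 was thus partly set by the filter, and without it 3 of 5 were called lower. In B cells Hbb-bs had 124786, 117218, 61909.5 and 22577 CPM and Mcpt4 had 321, 121, 0 and 9.12 CPM. With hemoglobin genes left out of the counts, an alternative chosen after seeing the data, 15 interferon-stimulated genes still fell and their median log2 fold change was -2.79.

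**Figure D5:**
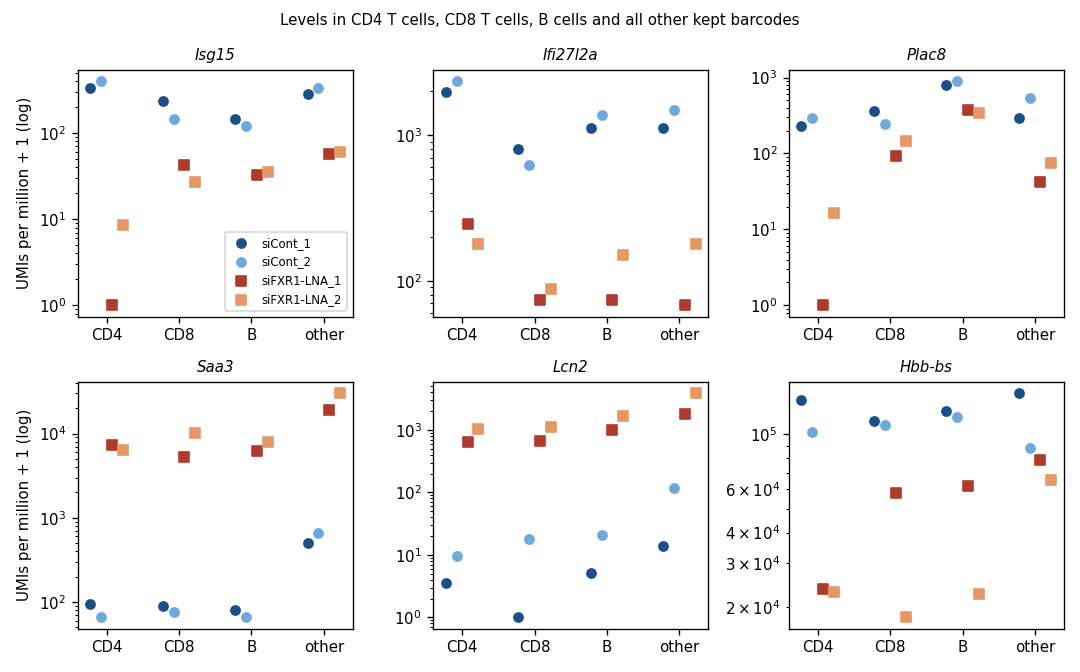
CPM plus 1 on a log axis for 6 genes in CD4 T cells, CD8 T cells, B cells and all other kept barcodes, 1 point per library. Saa3 and Lcn2 are higher and Isg15 and Ifi27l2a are lower in the siFXR1-LNA libraries in all 4 classes. Plac8 is at 0 and 15.3 CPM in CD4 T cells of the siFXR1-LNA libraries while it stays at or above 92.6 CPM in CD8 T cells, and Hbb-bs differs between the classes in siFXR1-LNA replicate 1.

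Some genes rested on few cells or on 1 library. Cst3, a protease inhibitor abundant in dendritic cells, had 2006, 1870, 419 and 775 CPM and fell by 1.81, but after cells with over 1% MHC class II UMIs were left out its log2 fold change was 0.52 (adjusted p = 0.68). Dendritic cell markers summed to 6756, 8187, 367 and 6913 CPM in the CD4 T cells, low in siFXR1-LNA replicate 1, with 3, 1, 6 and 3 of 10 at 0 UMIs. The summed B cell markers were at most 102 CPM in any library. Without those cells Isg15 fell by 5.85 and Plac8 fell by 3.74, and 10 interferon-stimulated genes were called, with all 25 negative. The limit on MHC class II UMIs was chosen after seeing the data. Kcnq5, a potassium channel, had 42.8, 35.6, 489 and 84.4 CPM and rose by 2.50, and without siFXR1-LNA replicate 1 its change was 0.98 (adjusted p = 0.62). Without siCont replicate 2, 9 of 23 interferon-stimulated genes were called, and with a receptor chain UMI required, 8 of 23, again with every tested member lower.

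CD4 and CD8 T cells were set side by side as a description, since the gate itself separates them. In each of the 4 libraries CD4 T cells had the higher level of Cd28, of Icos (CD8 T cells had 32.3, 32.5, 10.3 and 37.8 CPM) and of the costimulatory receptor Tnfrsf4 (68.0, 103, 52.4 and 46.0 CPM against 8.81, 8.13, 10.3 and 2.91 CPM). The nuclear receptor Rora, which takes part in Th17 and innate-like programs, had 129, 163, 105 and 161 CPM against 29.4, 31.1, 20.6 and 14.5 CPM. CD8 T cells had the higher level of the chemokine Ccl5, with 4710, 2883, 2090 and 3665 CPM against 582, 543, 262 and 798 CPM in CD4 T cells. Ifi27l2a was higher in CD4 than in CD8 T cells in all 4 libraries, also in the siFXR1-LNA libraries (245 and 176 CPM against 72.1 and 87.3 CPM).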

How the data were processed

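Single cells of mouse ascites were counted in 4 libraries, 2 per group. The deposited values are raw UMI counts for each gene in each barcode, not normalized, for which the submitters' processing notes name Cell Ranger 7.0.0 and mm10. Groups and replicate numbers came from the sample titles. Nothing states that the libraries of a group came from separate experiments, so p-values measure the spread between these pooled samples.

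The gates, CPM and sums were computed from these counts. Sums were tested with edgeR 4.0.16 in R 4.3.3 (TMM, filterByExpr, quasi-likelihood test, Benjamini-Hochberg, threshold 0.05), and the difference from CD8 T cells or B cells by an interaction term, blocked on the library. DESeq2 1.42.0 was an alternative, as were other size factors, no filter, other gates and each library left out. Doublets were not called, and the gate removed barcodes with markers of other classes only. CPM are shares of UMIs and not per length, so the text compares each gene with itself. A floor of 3 UMIs was used for bounds.

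The members, lists and tests were chosen with earlier results of these data known. Named were Fxr1 and its relatives, the markers, T cell genes of the study, the 10 largest rises and 10 largest falls without overlap at a mean CPM of at least 20, of each list every called member and the 3 highest, and the 5 genes of lowest p in each interaction; other genes named as examples were chosen after their values were seen. Promoter sequences are from RefSeq. Some single genes are not reported here.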

Additional observations from a re-analysis of the deposited data

Results flagged for a closer look

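The 5 genes of lowest p in each comparison changed by a different amount in CD4 T cells than in another cell type of the same libraries, by the edgeR interaction test with the library as a block. Against CD8 T cells the differences in log2 fold change were -2.55 for Arg1, 2.20 for Retnlg, -1.70 for S100a6, -1.45 for Cst3 and -3.53 for Plac8, with adjusted p from 5.1e-07 to 0.0014. Arg1 rose in both types, less in CD4 T cells. Retnlg had 2.52, 45.7, 332 and 775 CPM in CD4 T cells and 2.94, 140, 97.8 and 614 CPM in CD8 T cells (siCont replicates 1 and 2, then siFXR1-LNA replicates 1 and 2).

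Against B cells the differences were -1.91 for Fyb, 2.35 for Kcnq5, -2.58 for Ly6c2, -1.96 for Lgals3 and -4.05 for Il18rap, with adjusted p from 6.7e-07 to 6.6e-06. Fyb, an adaptor of T cells, had 338, 538, 419 and 606 CPM in CD4 T cells and 26.0, 21.3, 82.5 and 117 CPM in B cells. Lgals3, a galectin of macrophages, had 227, 183, 192 and 123 CPM in CD4 T cells and 77.5, 80.6, 229 and 217 CPM in B cells. Il18rap had 103, 98.7, 52.4 and 23.0 CPM in CD4 T cells and 4.97, 3.76, 18.7 and 25.5 CPM in B cells. The part of RNA from other cells in these differences was not tested.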

How the results depend on the processing

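The main test gave 43 genes higher and 49 lower. Without a filter on low counts it gave 72 and 120, and with a receptor chain UMI required 19 and 26. Cells with at most 1% myeloid UMIs gave 22 higher, and cells with at most 1% MHC class II UMIs, chosen after seeing the data, 31 lower. With 1 library left out, 25 to 71 genes were higher and 26 to 113 lower. The change differed from that of CD8 T cells in 27 genes, in 3 without a filter, 10 with a receptor chain UMI, 3 under the myeloid limit, 13 under the MHC class II limit, and 4 to 23 with 1 library left out. It differed from that of B cells in 57 genes, in 20 with a receptor chain UMI, 18 under the myeloid limit, 34 under the MHC class II limit, and 13 to 103 with 1 library left out. The cause of these moves was not tested; fewer cells enter the stricter gates.

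The Foxp3 share, lower by 0.711 percentage points (difference -0.711), turned to 0.160 without thinning and 3.24 with a receptor chain UMI required, on 1 cell of siFXR1-LNA replicate 1. Cst3 turned to a log2 fold change of 0.52 under the MHC class II limit.

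With the replicate number as a block, 135 genes were higher and 148 lower. Deviations of same-numbered libraries correlated at 0.137 across 4385 genes, over 2 pairs only, and the labels do not tie the numbers to a shared day or animal, so the block was not used as the main fit. The siFXR1-LNA libraries held 25 and 44 cells. Without replicate 1 of that group 32 genes were higher and 44 lower, and without replicate 2, 50 and 113.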
